A study of Mus musculus with 6 samples.

Results

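The 50 genes described here encode the non-collagen part of the extracellular matrix together with the enzymes and chaperones that make and crosslink matrix fibres. They were chosen by gene symbol from a hand-written list with no threshold on measured values, although earlier results of these data were known, and all 50 were found among the 52550 genes of the deposited table. By known role they comprised 12 adhesive and matricellular glycoproteins, 7 proteoglycans, 12 components of elastic fibres and microfibrils, 9 components of basement membranes, and 10 crosslinking and collagen processing proteins. Enough counts for a test were found for 47 of them, which stand among 16402 tested genes. Tnxb, Eln and Mfap4 had too few counts and were described by counts alone.

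The extracellular matrix is the network of secreted proteins that surrounds cells. Glycoproteins such as fibronectin carry binding sites for cell surface receptors, proteoglycans carry long sugar chains and regulate how collagen fibrils form, and fibrillins build microfibrils on which elastin is laid down. Laminins, nidogens and perlecan form the sheet-like basement membrane, and lysyl oxidases link collagen and elastin chains to each other outside the cell. In bone marrow this material is made largely by stromal cells, fibroblasts and osteoblast precursors, whereas macrophages are better known for taking it up and degrading it.

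The libraries came from a comparison of bone marrow-derived macrophages (BMDMs) of MSR1 KO mice with those of MSR1 WT mice. MSR1 is a scavenger receptor of macrophages. Bone marrow cells of the C57BL/6 strain were grown for 7 days with 25 ng/ml macrophage colony-stimulating factor, and the macrophages of both genotypes were then kept for 48 h in a transwell with bone marrow mesenchymal stem cells (BMSCs), so that both groups shared the co-culture. There were 3 MSR1 KO and 3 MSR1 WT libraries of mRNA, and no macrophages without co-culture were analysed here. The study calls the libraries of a genotype biological replicates. Whether each came from its own mouse, the knockout allele and the age of the mice are not given in the sources used here, so p-values measure the spread between these libraries.

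Total counts per library lay between 36143518 and 47417448, so that 3 counts, the limit read from a count of 0, corresponded to between 0.0632 and 0.0835 CPM (counts scaled to a common library size). Such limits, and intervals built on counts, cover no more than counting error. Msr1, the targeted gene, was at 2118, 1825 and 2000 counts in MSR1 KO against 7543, 9163 and 9219 in MSR1 WT libraries, or -2.02 on the log2 scale (standard error, SE, 0.135, adjusted p = 0.00124). Of 18 macrophage markers, all were detected well enough to be tested, and their summed level was between 33495 and 35081 CPM in MSR1 KO and between 32110 and 34954 CPM in MSR1 WT libraries. A list of 30 stromal markers without matrix genes was also detected, at a summed level between 1056 and 1248 CPM in MSR1 KO and between 1593 and 2067 CPM in MSR1 WT libraries. Of these 30, Tcf21 and Meox2 were at 0 in all 6 libraries.

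Matrix transcripts were lower in MSR1 KO than in MSR1 WT libraries. At an adjusted p under 0.05, 12 of the 47 tested members (25.5%) fell in the MSR1 KO libraries, where 2.66% of all tested genes fell, and 0 rose, where 2.25% of all tested genes rose. An unadjusted p under 0.05 was found for 31 members, of which 0 were higher. The genes that fell were the crosslinking enzymes Lox, Loxl1 and Plod2, the proteoglycans Bgn and Ogn, the elastic fibre genes Fbn1 and Fbln5, and the basement membrane genes Lama2, Lamb1, Lamb2, Nid1 and Nid2. Their log2 fold changes of MSR1 KO over MSR1 WT ran from -1.66 for Lama2 to -0.48 for Plod2. Each gene was tested with edgeR (quasi-likelihood test, Benjamini-Hochberg adjustment over the 16402 genes), and every adjusted p below comes from that fit. Leaving out a library moved the count of 12 strongly. It was 1 without MSR1 KO replicate 1, 1 without MSR1 WT replicate 1, 3 without MSR1 KO replicate 3, 8 without MSR1 WT replicate 2, 9 without MSR1 WT replicate 3 and 16 without MSR1 KO replicate 2, whereas the Wald test of DESeq2 called 23.

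The study's own definition, a fold change above 1.5 with an unadjusted p under 0.05, took in 19 members as lower (40.4%) and 0 as higher, against 5.05% and 3.59% of all tested genes. With each library left out in turn, between 14 and 22 members met it as lower and 0 as higher. The log2 fold change was negative for 43 of the 47 tested members, and its median was -0.47, against -0.0023 over all tested genes. For 27 members (57.4%) all 3 MSR1 KO libraries lay below all 3 MSR1 WT libraries, as was the case for 13.4% of all tested genes, and for 0 members did they all lie above, as was the case for 12.1% of all tested genes. The values of the other 20 members overlapped between the groups. Of the tested members, Sparcl1, Lum and Fbn2 were over the filter on low counts in all 3 MSR1 WT but not in all 3 MSR1 KO libraries. At least 10 counts in every library were found for 43 members.

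**Figure D1:**
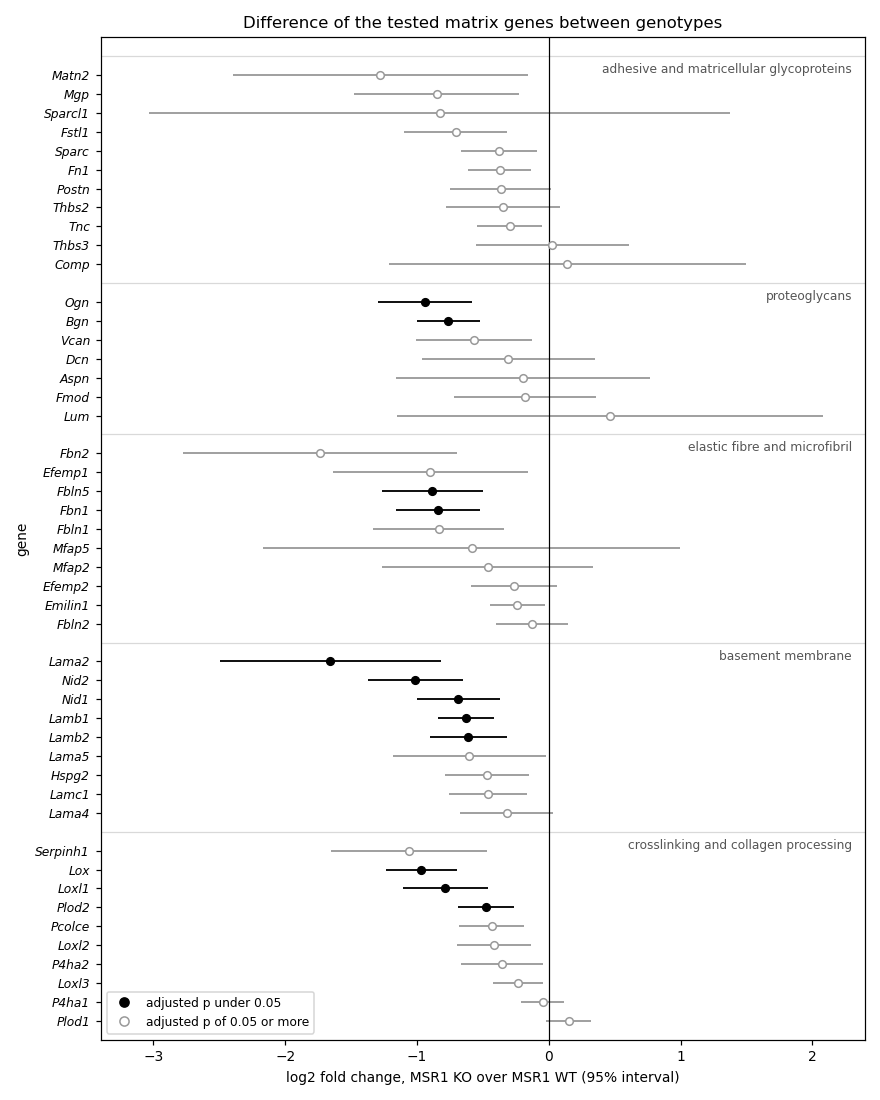
Log2 fold change of MSR1 KO over MSR1 WT (x axis) of the 47 tested matrix genes (y axis), grouped by role, with 95% intervals from the edgeR fit of 3 against 3 libraries. Filled points mark the 12 genes with an adjusted p under 0.05, all left of 0. Only Thbs3, Comp, Lum and Plod1 lie right of 0, each with an interval that includes 0.

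In CPM divided by the exon length in kilobases (RPKM), the most abundant members in MSR1 WT libraries were Sparc at 125 ± 12.5 RPKM (SD, n = 3), Bgn at 72.9 ± 6.66, Fn1 at 70.5 ± 2.31, Lox at 62.5 ± 7.49 and Serpinh1 at 58.9 ± 21.3 RPKM. Neither Bgn and Fn1 nor Lox and Serpinh1 differed by more than their spread. In MSR1 KO libraries the order of the same genes was Sparc at 96.1 ± 15.7 RPKM, Fn1 at 54.5 ± 8.01, Bgn at 43.0 ± 5.02, Lox at 31.9 ± 3.99 and Serpinh1 at 28.2 ± 4.26 RPKM, and Plod1 at 41.6 ± 2.4 RPKM and P4ha1 at 33.3 ± 1.79 RPKM lay above Lox and Serpinh1. P4ha1 and Lox differed by less than their spread. At the other end, 16 tested members had under 10 CPM in MSR1 WT libraries. Of these, 1 fell at an adjusted p under 0.05, Lama2, and 7 met the study's definition, against 11 and 12 of the 31 tested members with 10 CPM or more. The median log2 fold change was -0.59 in the former and -0.46 in the latter.

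**Figure D2:**
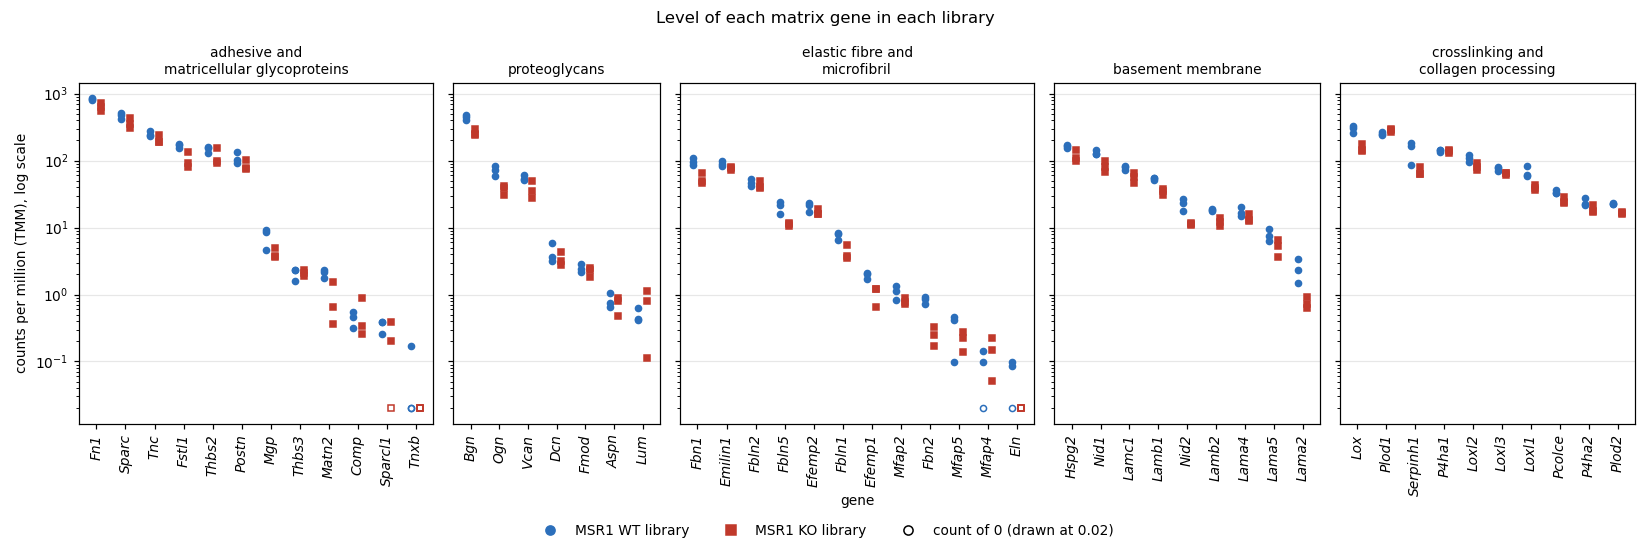
Level of each of the 50 matrix genes in each library, in CPM on a log scale (y axis), with genes sorted within each role by their MSR1 WT mean (x axis). Circles are MSR1 WT and squares MSR1 KO libraries, and open symbols mark counts of 0. The squares of Lox, Bgn, Fbn1 and the 5 basement membrane genes that fell sit below all their circles.

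For 31 of the 50 members a promoter window of 300 bases was matched by symbol in RefSeq (build GRCm38.p6), 38 windows in all, from 250 bases before to 50 bases after an annotated start. Sequences are shown for 3 genes that fell. They were chosen to display a start with GC boxes, a start without one and a start of Lama2, which fell most. The Lama2 start shown lies inside the gene, whose 5′ end is at 27619758, and the Ogn start lies before its gene's position at 49608046. Each run gives the 150 bases before the start, 5′ to 3′ on the gene's strand, with capitals for a match, on either strand, to any of 5 motifs. The letters searched were TATAAA for the TATA box, GGGCGG for the GC box and CCAAT for the box of that name. For the factor families AP-1 and TEAD they were TGACTCA and, separately, ACATTCC. The printed bases hold no exon of the GENCODE annotation.
Bgn, chrX:73483451-73483600, plus strand: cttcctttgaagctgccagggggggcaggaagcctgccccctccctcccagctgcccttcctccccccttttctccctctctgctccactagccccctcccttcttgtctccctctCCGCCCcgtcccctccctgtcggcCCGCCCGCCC
Ogn, chr13:49607865-49608014, plus strand: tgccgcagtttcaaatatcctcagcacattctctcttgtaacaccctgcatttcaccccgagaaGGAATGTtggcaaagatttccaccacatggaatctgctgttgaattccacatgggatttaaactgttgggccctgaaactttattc
Lama2, chr10:27616943-27617092, minus strand: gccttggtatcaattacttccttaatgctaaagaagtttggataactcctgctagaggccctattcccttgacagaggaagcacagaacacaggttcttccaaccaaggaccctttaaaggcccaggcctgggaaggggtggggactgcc

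The Bgn start is preceded by 3 GC boxes in the last bases before it, of which 2 overlap, the Ogn run holds a single TEAD match and no GC box, and the Lama2 run holds none of the 5 motifs, although the whole Lama2 window holds a GC box. Over the 38 windows of members, GGGCGG was found in 65.8%, against 35.7% of 32851 windows of all genes, and TATAAA in 21.1% against 13.6%. CCAAT was found in 28.9% against 37.4%, TGACTCA in 2.63% against 5.2%, and ACATTCC in 2.63% against 3.85%. The median GC content was 60.3% in the windows of members and 52.7% in all windows. Of 8 genes that fell and had a window, 6 held a GC box in it. These matches describe letters in the windows, with no measure of binding.

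Among the crosslinking and collagen processing proteins, 3 of 10 fell, 7 did not pass the test, and the median log2 fold change was -0.42. Lox (ENSMUSG00000024529.13, chromosome 18 from 52516069 to 52529867), the lysyl oxidase that starts the crosslinking of collagen and elastin, had 143, 175 and 140 CPM in MSR1 KO libraries and 332, 261 and 302 CPM in MSR1 WT libraries. Every MSR1 KO value was thus below the lowest MSR1 WT value. It had the lowest adjusted p of the 50 genes, at a log2 fold change of -0.97 (SE 0.117, adjusted p = 0.0092), and it passed with each of the 6 libraries left out in turn, with a highest adjusted p of 0.049. Loxl1, a lysyl oxidase known for its part in elastic fibres, had 37.0, 43.3 and 38.9 CPM in MSR1 KO and 84.1, 59.2 and 61.9 CPM in MSR1 WT libraries. The groups did not overlap, with MSR1 WT replicate 1 the highest, and the log2 fold change was -0.78 (SE 0.141, adjusted p = 0.0256). Plod2, which hydroxylates lysines of collagen and so shapes its crosslinks, was nearly constant within groups, at 16.5, 17.0 and 15.7 CPM in MSR1 KO and 23.5, 22.6 and 22.3 CPM in MSR1 WT libraries. Its log2 fold change was -0.48 (SE 0.0922, adjusted p = 0.0295), below the fold of 1.5 that the study's definition asks for. Plod2 did not pass with any library left out, with adjusted p between 0.0501 and 0.114.

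The other members of this class ranged from the largest difference to almost none. Serpinh1, the collagen chaperone HSP47, had 80.9, 62.8 and 63.0 CPM in MSR1 KO libraries against 183, 84.8 and 164 CPM in MSR1 WT libraries. MSR1 WT replicate 2 lay close to the MSR1 KO values, and the log2 fold change of -1.06 (SE 0.258) did not pass (adjusted p = 0.057). Pcolce, which enhances the trimming of procollagen, had 23.1, 28.8 and 23.7 CPM against 36, 33.1 and 33.2 CPM, with adjusted p = 0.061. Loxl2, Loxl3 and P4ha2 had log2 fold changes of -0.41, -0.23 and -0.36 and did not pass either, although in each the groups did not overlap. P4ha1, a prolyl hydroxylase that stabilizes the collagen helix, had 129, 143 and 139 CPM against 136, 143 and 145 CPM, a log2 fold change of -0.047 with a 95% interval from -0.21 to 0.12. Plod1 had 265, 282 and 297 CPM in MSR1 KO against 250, 268 and 242 CPM in MSR1 WT libraries, or 0.15 on the log2 scale with a 95% interval from -0.018 to 0.32. Plod1 and Plod2, the 2 lysyl hydroxylases among the members, thus had log2 fold changes of opposite sign, and no test of their difference was made. Of the summed RPKM of the 4 lysyl oxidases among the members, Lox made up 52.2% in MSR1 WT and 43.7% in MSR1 KO libraries.

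Basement membrane genes had the highest share of falls, 5 of 9, and all 9 had a negative log2 fold change, with a median of -0.61. Nid2 (ENSMUSG00000021806.4, chromosome 14 from 19751265 to 19811787), a nidogen, which ties laminin to collagen IV, had 11.4, 11.8 and 10.8 CPM in MSR1 KO libraries and 27.2, 18 and 23.5 CPM in MSR1 WT libraries. The MSR1 KO values lay close together and the MSR1 WT values were spread. The log2 fold change was -1.01 (SE 0.156, adjusted p = 0.0183). Nid1, the other nidogen, had 81.3, 98.5 and 67.0 CPM against 146, 125 and 126 CPM, a log2 fold change of -0.69 (SE 0.138, adjusted p = 0.0324). Of the laminin β chains, Lamb1 had 35.1, 37.3 and 31.0 CPM against 50.9, 54.6 and 54.3 CPM, and Lamb2 had 11.9, 13.8 and 10.5 CPM against 19.2, 18.4 and 17.7 CPM. In neither did the groups overlap, and the log2 fold changes were -0.63 (adjusted p = 0.0162) and -0.61 (adjusted p = 0.0368), and the difference between the 2 chains was not tested. Lamc1, the γ chain that pairs with both, had 56.9, 66.2 and 46.9 CPM against 79.1, 83.5 and 71.8 CPM, which did not overlap but did not pass (log2 fold change -0.46, adjusted p = 0.0866).

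The members include 3 laminin α chains, which give each laminin its receptor binding. Lama1 and Lama3, which are no members and are not in the shares given here, had log2 fold changes of -1.84 and -1.29 and did not pass (adjusted p = 0.116 and 0.104). Lama2 (ENSMUSG00000019899.16, chromosome 10 from 26980036 to 27619758), the α chain of muscle and mesenchymal basement membranes, had 26, 25 and 43 counts in MSR1 KO libraries and 139, 112 and 62 counts in MSR1 WT libraries, which is 0.724, 0.628 and 0.925 CPM against 3.37, 2.36 and 1.5 CPM. All MSR1 KO libraries were below all MSR1 WT libraries, and the log2 fold change of -1.66 (SE 0.366, adjusted p = 0.0428) was the largest among the genes that fell, on the smallest counts. Without MSR1 WT replicate 1 its adjusted p was 0.158. Lama4, found in vessels and around stromal cells, had 12.4, 15.9 and 12.9 CPM against 15.0, 16.2 and 20.1 CPM, and Lama5 had 5.29, 6.58 and 3.59 CPM against 9.65, 6.39 and 7.43 CPM. Both overlapped between groups and did not pass (adjusted p = 0.317 and 0.243). Per length, Lama4 made up 63.0% of the summed RPKM of these 3 chains in MSR1 WT and 69.5% in MSR1 KO libraries, and Lama2 made up 6.55% and 2.84%. Hspg2, which encodes perlecan, had 108, 146 and 99.1 CPM against 166, 154 and 170 CPM, with a log2 fold change of -0.47 (adjusted p = 0.104).

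Of the 7 proteoglycans, 2 fell and 5 did not pass the test, and the median log2 fold change was -0.31. Bgn (ENSMUSG00000031375.17, chromosome X from 73483602 to 73495933) encodes biglycan, a small proteoglycan of bone and connective tissue, and its start is the one shown above with 3 GC boxes. It had 239, 297 and 251 CPM in MSR1 KO libraries and 483, 402 and 448 CPM in MSR1 WT libraries. These groups were far apart for their spread, and the log2 fold change was -0.76 (SE 0.103, adjusted p = 0.0135). Ogn (ENSMUSG00000021390.6, chromosome 13 from 49608046 to 49624501), which encodes osteoglycin, had 30.3, 41.5 and 38.9 CPM against 82.6, 58.4 and 71.7 CPM, a log2 fold change of -0.94 (SE 0.156, adjusted p = 0.021). Aspn, its neighbour 40480 bases away on chromosome 13, had 32, 32 and 22 counts against 44, 36 and 27 counts, which overlapped, at a log2 fold change of -0.20 (95% interval -1.16 to 0.77).

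The other proteoglycans of fibrous tissue were at low levels in both groups. Dcn, decorin, one of the main proteoglycans of fibroblasts, had 2.76, 3.19 and 4.28 CPM in MSR1 KO and 3.20, 3.58 and 5.91 CPM in MSR1 WT libraries, and Fmod, fibromodulin, had 2.45, 2.31 and 1.85 CPM against 2.43, 2.15 and 2.90 CPM. Lum, lumican, had 4, 32 and 52 counts against 26, 20 and 18 counts, so that both the lowest and the highest value were in MSR1 KO libraries. None of the 3 passed (adjusted p of at least 0.632). Per length, Bgn made up 71.1% of the summed RPKM of the 6 small leucine-rich members in MSR1 WT and 72.6% in MSR1 KO libraries. Vcan, which encodes the large proteoglycan versican, had 35.4, 49.4 and 27.4 CPM against 60.9, 51.9 and 53.2 CPM, a log2 fold change of -0.57 that did not pass (adjusted p = 0.152) although the groups did not overlap.

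Of the elastic fibre and microfibril genes, 10 of 12 could be tested, 2 fell, and all 10 had a negative log2 fold change, with a median of -0.71. Fbn1 (ENSMUSG00000027204.13, chromosome 2 from 125300594 to 125507993), the main fibrillin of microfibrils, had 49.8, 65.1 and 46.7 CPM in MSR1 KO libraries and 108, 86.6 and 94.8 CPM in MSR1 WT libraries. The highest MSR1 KO value, in replicate 2, was below every MSR1 WT value, and the log2 fold change was -0.84 (SE 0.139, adjusted p = 0.0211). Of its exon bases, 20.1% overlap Gm9913 on the other strand, and since the strand setting is not given in the sources used here, reads of the pair cannot be told apart. Fbln5, the fibulin that brings elastin to microfibrils, had 10.6, 11.8 and 11.1 CPM against 24.4, 15.7 and 21.8 CPM, a log2 fold change of -0.88 (SE 0.166, adjusted p = 0.0272).

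Fbn2, the fibrillin of developing tissue, had 9, 13 and 8 counts in MSR1 KO libraries against 38, 34 and 36 counts in MSR1 WT libraries. The groups were well separated on few counts, and the log2 fold change of -1.74 (SE 0.453) did not pass (adjusted p = 0.0722). Fbln1 had 3.51, 5.58 and 3.70 CPM against 6.52, 7.99 and 8.30 CPM, at a log2 fold change of -0.84 (adjusted p = 0.0716), and Efemp1 had 1.23, 0.653 and 1.23 CPM against 2.04, 2.07 and 1.69 CPM, at -0.90 (adjusted p = 0.175). Emilin1, a microfibril glycoprotein, had 72.5, 77.3 and 79.8 CPM against 89.4, 99.7 and 81.8 CPM, a log2 fold change of -0.24 (adjusted p = 0.201), and Fbln2 had 39.3, 49.4 and 40.4 CPM against 52.6, 46.3 and 42.2 CPM, a log2 fold change of -0.13 (95% interval -0.40 to 0.15). Efemp2, Mfap2 and Mfap5 overlapped between groups, with log2 fold changes of -0.26, -0.47 and -0.59 and adjusted p between 0.376 and 0.719. Eln itself, which encodes elastin, was at 0 counts in each MSR1 KO library and at 4, 4 and 0 counts in MSR1 WT libraries, and Mfap4 had 8, 2 and 7 counts against 6, 0 and 4 counts. At this depth elastin transcript was at the limit of detection in both groups.

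None of the 11 tested adhesive and matricellular glycoproteins passed the test, although 9 had a negative log2 fold change and the median was -0.37. This class held the most abundant transcripts. Fn1, which encodes fibronectin, took 19.4% of the summed CPM of the 50 genes in MSR1 KO and 18.3% in MSR1 WT libraries, and it had 633, 733 and 545 CPM against 851, 797 and 825 CPM. The groups did not overlap, and the log2 fold change of -0.37 (SE 0.104) had an adjusted p of 0.0883. Sparc, which encodes osteonectin, a collagen-binding glycoprotein abundant in bone, had 310, 428 and 354 CPM against 510, 419 and 488 CPM, so that MSR1 KO replicate 2 lay above MSR1 WT replicate 2 (log2 fold change -0.38, adjusted p = 0.143). Fstl1, a secreted follistatin-like glycoprotein, came closest to the threshold, with 80.8, 133 and 92.4 CPM against 176, 152 and 173 CPM, a log2 fold change of -0.71 (SE 0.171, adjusted p = 0.0563).

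Tnc (tenascin C), Postn (periostin) and Thbs2 (thrombospondin 2), matricellular proteins of healing tissue, had log2 fold changes of -0.30, -0.37 and -0.35, with overlapping groups and adjusted p between 0.181 and 0.376. Thbs2 had 91.9, 155 and 99.8 CPM against 154, 129 and 158 CPM, where the single high MSR1 KO value was again that of replicate 2. Mgp, an inhibitor of calcification, had 5.01, 3.72 and 3.64 CPM against 9.05, 8.56 and 4.65 CPM, and Matn2 had 13, 62 and 30 counts against 96, 103 and 72 counts. Both had log2 fold changes beyond a fold of 1.5, at -0.85 and -1.28, and neither passed (adjusted p = 0.132 and 0.20). Thbs3, Comp and Sparcl1 were low in every library, at most 2.36 CPM, and the intervals of their log2 fold changes included 0. Tnxb, which encodes tenascin X, had 8 counts in MSR1 WT replicate 2 and 0 in the other 5 libraries.

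Summed over the 50 genes, matrix transcripts came to 3064, 3752 and 3049 CPM in MSR1 KO libraries and 4844, 4184 and 4523 CPM in MSR1 WT libraries. The groups did not overlap, and the mean was 1.37-fold higher in MSR1 WT (4517 ± 330 CPM, SD, n = 3) than in MSR1 KO libraries (3288 ± 401 CPM, SD, n = 3). No p-value is given for such a sum over chosen genes. The log2 ratio of the mean sums was -0.75 for the proteoglycans, -0.57 for the basement membrane genes, -0.46 for the elastic fibre genes, -0.40 for the crosslinking and processing genes and -0.39 for the adhesive glycoproteins, and differences between roles were not tested. Within each genotype, the same library was the highest for most members. MSR1 KO replicate 2 was the highest MSR1 KO library for 33 of the 47 tested members, and MSR1 WT replicate 1 was the highest MSR1 WT library for 31 and the highest of all 6 for 29. The median SD within groups, on the log2 scale, was 0.21 for the members and 0.175 for all tested genes.

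Stromal markers were lower in sum in the same libraries. Of their 28 tested genes, 11 fell (39.3%) and 0 rose, against 2.66% and 2.25% of all tested genes. The log2 ratio of their mean sums was -0.65. Pdgfra, a receptor of mesenchymal cells, went from 16.2 ± 2.31 CPM in MSR1 WT to 7.13 ± 1.11 CPM in MSR1 KO libraries (SD, n = 3, adjusted p = 0.0142), and the smooth muscle gene Tagln from 235 ± 26.6 to 151 ± 12.9 CPM (adjusted p = 0.0191). Pdpn and Prrx1 fell as well, with log2 fold changes of -1.83 and -0.66. Thy1 and Nt5e, which encode CD90 and CD73, markers of BMSCs, were named after their values were seen. Thy1 was at 6.43 ± 0.553 CPM in MSR1 KO and 2.61 ± 1.52 CPM in MSR1 WT libraries (SD, n = 3), with no overlap, and met the study's definition as higher, although its log2 fold change of 1.31 did not pass (adjusted p = 0.0907). Nt5e overlapped between groups, with a log2 fold change of 0.46 (adjusted p = 0.463). The ratio of the summed matrix genes to the summed stromal markers was 2.90, 3.01 and 2.77 in MSR1 KO against 2.34, 2.63 and 2.66 in MSR1 WT libraries, so that it was higher in every MSR1 KO library. The stromal sum was weighted by Acta2, at a mean of 504 of 1135 CPM in MSR1 KO and 808 of 1787 CPM in MSR1 WT libraries. In these bulk libraries, fewer cells of a type and less RNA per cell cannot be told apart, and the part of stromal transcripts in the fall of the matrix genes was not tested.

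Of the 18 macrophage markers, 3 rose (Fcgr1, Aif1 and Ptprc, with log2 fold changes of 1.14, 0.67 and 0.35) and 0 fell. The log2 ratio of their mean sums was 0.02, and these sums were weighted by Lyz2, at 13398 CPM in MSR1 KO and 14912 CPM in MSR1 WT libraries. Gene by gene the median log2 fold change was 0.18, and 3 markers were negative. For 11 of the 18, all 3 MSR1 KO libraries lay above all 3 MSR1 WT libraries, as for 12.1% of all tested genes. Of 10 endothelial markers, Pecam1 rose, at a log2 fold change of 0.72 (adjusted p = 0.0269), 0 fell, and the summed level was between 109 and 136 CPM in MSR1 KO and between 67.0 and 105 CPM in MSR1 WT libraries.

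**Figure D3:**
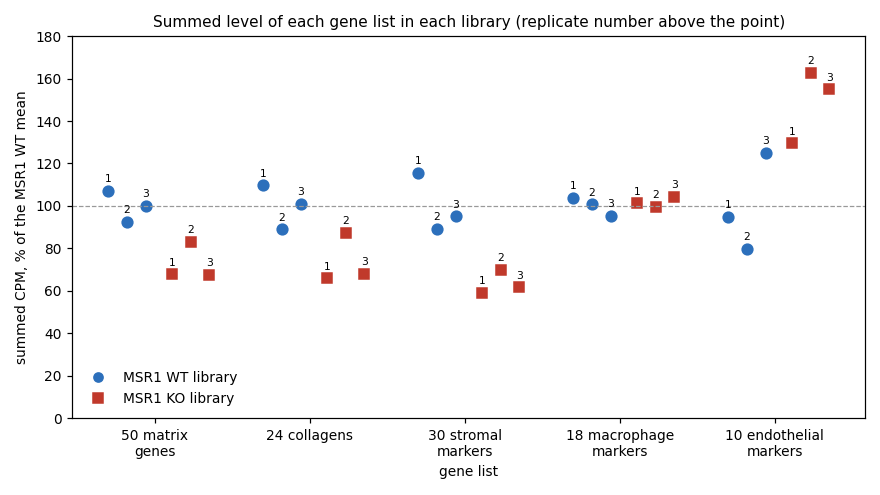
Summed CPM of 5 gene lists in each library, as a percentage of the MSR1 WT mean of that list (y axis), with circles for MSR1 WT and squares for MSR1 KO libraries and the replicate number above each point. The matrix genes lie between 67.5% and 83.1% in MSR1 KO libraries. The collagens and the stromal markers of MSR1 KO libraries also lie below all MSR1 WT points, whereas the summed macrophage markers of both genotypes lie near 100%. That sum is weighted by Lyz2, and 11 of the 18 markers were higher in all MSR1 KO than in all MSR1 WT libraries.

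Other matrix genes were counted from lists that, like the members, were chosen with earlier results of these data known. Of 24 collagens, 23 were tested, 6 fell (26.1%) and 0 rose, and the log2 ratio of mean sums was -0.44. The falls with the lowest adjusted p were Col8a1 (log2 fold change -1.06), Col6a1 (-0.80), Col6a2 (-0.88) and Col2a1 (-1.10), of which the type VI chains form the beaded filaments to which biglycan is known to bind. Of 44 tested genes among 58 other matrix glycoproteins and proteoglycans, 8 fell (18.2%) and 1 rose, at a log2 ratio of mean sums of -0.33. Svep1, a large adhesion protein, fell from 9.67 ± 1.60 to 2.59 ± 0.201 CPM (SD, n = 3, log2 fold change -1.90, adjusted p = 0.00402). Spp1, osteopontin, which macrophages themselves secrete, fell at a log2 fold change of -0.79 (adjusted p = 0.00654), as did Ltbp3 (-0.70) and Mfge8 (-1.58), a bridging protein in the uptake of dying cells. The gene that rose was Spon1, named after its value was seen, at 347, 458 and 503 counts in MSR1 KO and 52, 35 and 120 counts in MSR1 WT libraries (log2 fold change 2.71, adjusted p = 0.0191).

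Of 22 tested genes among 24 other collagen processing and crosslinking enzymes, 4 fell (18.2%) and 1 rose. The log2 ratio of their mean sums was -0.010, so that their summed level was nearly the same in both groups. The prolyl 3-hydroxylase gene P3h3 (log2 fold change -0.65), P3h2 (-1.35) and the procollagen peptidase Adamts2 (-0.64) fell, as did P3h4, named after its value was seen. The crosslinking transglutaminase Tgm2, which macrophages are known to express, rose from 218 ± 25.0 to 348 ± 63.4 CPM (SD, n = 3, adjusted p = 0.0326). Of 31 tested matrix receptors among 32, 10 fell (32.3%) and 2 rose, at a log2 ratio of mean sums of -0.22. The 4 with the lowest adjusted p were heparan sulfate carriers of the cell surface, the syndecans Sdc1 (log2 fold change -1.17, adjusted p = 0.00835) and Sdc2 (-0.69, adjusted p = 0.0163) and the glypicans Gpc1 (-0.63, adjusted p = 0.0234) and Gpc6 (-0.89, adjusted p = 0.0243). The 2 receptors that rose, named after their values were seen, were Cd47 (log2 fold change 0.36) and the syndecan Sdc3. Sdc3 rose from 825 ± 154 CPM in MSR1 WT to 1231 ± 99.9 CPM in MSR1 KO libraries (SD, n = 3, log2 fold change 0.58, adjusted p = 0.0434).

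The calls differed in how they held when a library was left out. Over the 6 fits with 5 libraries each, Lox passed in 6, Bgn in 4, Ogn, Fbn1, Lamb1, Nid2 and Loxl1 in 3, and Fbln5, Lama2, Lamb2 and Nid1 in 1, and Plod2 in 0. The direction of all 12 was the same in every one of these fits, with log2 fold changes of Lox between -1.08 and -0.88 and of Bgn between -0.86 and -0.69. DESeq2 called the same 12 genes and 11 more, among them Fn1, Serpinh1, Fstl1, Fbln1 and Fbn2.

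**Figure D4:**
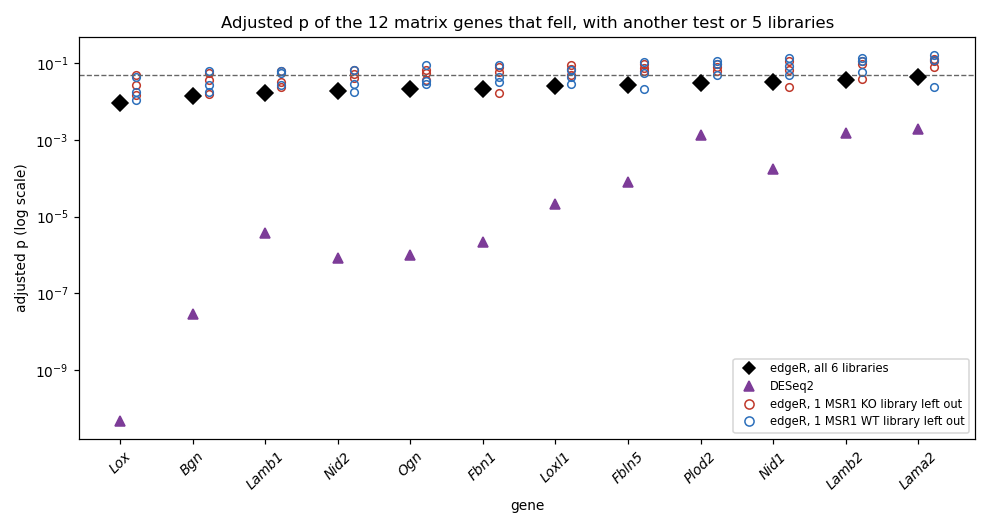
Adjusted p on a log scale (y axis) of the 12 matrix genes that fell (x axis), from edgeR with all 6 libraries (diamonds), from DESeq2 (triangles) and from edgeR with 1 library left out (open circles, coloured by the genotype of that library). The dashed line is at 0.05. The open circles of Lox stay below the line, up to 0.049, and those of Plod2 lie above it.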

How the data were processed

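RNA was measured by mRNA sequencing in 3 MSR1 KO and 3 MSR1 WT libraries of macrophages after co-culture. The authors deposited a single table of raw read counts per gene and library, with a signal column per library (counts divided by a size factor), which was not used, and columns of their own log2 fold changes and p-values, which were neither used nor compared. The submitters' processing notes name fastp 0.17.1, HISAT2 2.1.0, DESeq2 1.18.1 and R 3.4.3, whereas the methods name TopHat and FPKM values. The counting program, strand setting and genome build are not given in the sources used here, and 0 value columns were left unmapped. Positions are those of the deposited table, of which 45 of the 50 were the same in the GENCODE annotation of GRCm38 (49909 of 52550 over all genes), from which union exon lengths for RPKM were taken.

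The quasi-likelihood test of edgeR 4.0.16 (R 4.3.3) was run on TMM-scaled counts of the 16402 genes kept by filterByExpr, with Benjamini-Hochberg adjustment over them. Standard errors were derived from the log2 fold change and its F statistic. Genes were called at an adjusted p under 0.05. Named genes were all 50 members, and of each other list up to 4 genes with the lowest adjusted p. Outside this rule, Msr1, Lama1, Lama3, Tcf21 and Meox2 were also named, as were the genes marked as named after their values were seen. Members and lists were chosen with earlier results of these data known. Alternatives were DESeq2 1.42.0, 2 other scalings, 2 other filters, the replicate number as a block and each library left out. Pairs of replicates differed by 24.0 to 47.4 times the sampling noise (chi-square per degree of freedom), so that none was a repeated library. On simulated counts of 16048 genes for this comparison, edgeR recovered 110 of 200 genes changed 2-fold (55%) with 9 other calls.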

Additional observations from a re-analysis of the deposited data

How the results depend on the processing

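The count of 12 matrix genes that fell was 12 with DESeq2's size factors, 14 with library size alone, 14 with at least 10 counts in every library, 10 without a filter, 23 with DESeq2, and between 1 and 16 with a library left out. With the replicate number as a block 1 gene fell (Lox), and the cause of the loss was not tested. The libraries shared only a number, since the deviations of same-numbered MSR1 KO and MSR1 WT libraries had correlations of -0.026, 0.019 and -0.0048, and MSR1 KO replicate 3 had its highest correlation with MSR1 WT replicate 1. The count of risen members was 0 under each of these alternatives. Over all genes, falls and rises numbered 436 and 369, and 848 and 720 with DESeq2, 288 and 237 without a filter, 78 and 59 with the replicate block, and 53 to 372 and 18 to 407 with a library left out. The median log2 fold change of the members lay between -0.62 (without MSR1 KO replicate 2) and -0.39 with a library left out. The log2 ratio of the summed level was -0.46, -0.50 in RPKM, -0.48 with Fn1 set aside and between -0.56 and -0.40 with a library left out. The sign of 6 members changed, none of which passed with all libraries. On the log2 scale and over the fits with 5 libraries, Thbs3 lay between -0.13 and 0.13, Comp between -0.58 and 0.46, P4ha1 between -0.079 and 0.0034, Lum between -0.095 and 0.96, Aspn between -0.37 and 0.040, and Dcn up to 0.0093 (without MSR1 WT replicate 3). Thbs3 was also -0.0041 with library size alone, and Comp -0.018 with the replicate block. Depth limits Eln, Tnxb and Mfap4, which could not be tested.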
